A study of Mus musculus with 10 samples.

Results

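Krüppel-like factors were followed through every array probe set that the annotation assigns to exactly 1 of the genes *Klf2*, *Klf4*, *Klf5*, *Klf6*, *Klf7*, *Klf9*, *Klf10*, *Klf12*, *Klf13* and *Klf16*. This gave 32 probe sets for 10 genes, of 45037 probe sets tested in all. The study compared the cerebral cortex of 5 *Crtc1*-/- mice with that of 5 wild-type (WT) littermates, all of them untreated C57BL/6N females aged 2 months per the labels. *Crtc1* encodes a coactivator of the transcription factor CREB, and the question was which transcripts differ when it is missing. Values are log2 array values, 1 array per mouse, so a difference of 1 is a doubling, and fold changes are *Crtc1*-/- minus WT.

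Krüppel-like factors are zinc finger proteins that bind GC-rich and CACCC sequences and either activate or repress transcription. Several are immediate responders: *Klf2* and *Klf4* to blood flow in endothelium, *Klf9* to glucocorticoid and thyroid hormone, *Klf10* to transforming growth factor-beta. In neurons the family is known for its opposing effects on axon growth, with *Klf6* and *Klf7* promoting it and *Klf4* and *Klf9* restraining it.

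*Crtc1* itself lay at 5.96 to 6.60 in *Crtc1*-/- cortices and at 9.51 to 9.86 in WT cortices on its brightest probe set (log2 fold change −3.32, SE 0.12, limma adjusted p = 2.13e-07), as the labels state. The 10 arrays correlated at 0.994 to 0.998 with each other. Markers of cortical neurons, of which 9 of 10 were measured and none was dim, averaged 9.97 ± 0.02 in *Crtc1*-/- and 9.96 ± 0.03 in WT (SD, n = 5 each; two-sided exact permutation p = 0.429). These means hold members on both sides: *Lamp5* (0.25, limma adjusted p = 0.012) and *Rasgrf2* (0.26, adjusted p = 0.0152) were called higher over genes, 6 of the 9 were below 0, and *Tbr1* (−0.18), *Neurod6* (−0.19) and *Slc17a7* (−0.13) were not called. A dim probe set is one whose mean lay below 5.3, the median over all probe sets. The 11 measured oligodendrocyte markers averaged 10.38 ± 0.12 in *Crtc1*-/- and 10.17 ± 0.16 in WT (n = 5 each, exact permutation p = 0.0476), with all 11 above 0 in fold change and none called by limma. The 10 measured hippocampal markers, 9 of them dim, averaged 4.63 ± 0.07 in *Crtc1*-/- and 4.74 ± 0.06 in WT (n = 5 each, exact permutation p = 0.0476). They split into 5 above and 5 below 0, with *Fibcd1* (−0.41, limma adjusted p = 0.00922) and *Fam163b* (−0.28, adjusted p = 0.0188) called lower. The oligodendrocyte and hippocampal permutation p-values were the smallest of the 9 marker lists and were not adjusted over the lists.

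None of the 10 Krüppel-like factors passed the test between genotypes. Of the 32 probe sets 0 were called by limma after Benjamini-Hochberg correction over all probe sets, with adjusted p between 0.405 and 0.994, against 0.187% of all probe sets called lower and 0.115% called higher in *Crtc1*-/- cortex. At an unadjusted p under 0.05 there were 3 member probe sets, 1 each of *Klf7*, *Klf5* and *Klf10*, against 7.19% of all probe sets. In 0 of the 32 did the 5 *Crtc1*-/- arrays and the 5 WT arrays fail to overlap, against 2.08% of all probe sets. The fold changes ran between −0.32 and 0.31 on the log2 scale, 17 above and 15 below 0, with a median of 0.01 against 0.00 over all probe sets. Fewer cells of a type and less RNA per cell cannot be told apart in whole cortex.

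The width of the intervals shows what the arrays could resolve. The 95% confidence interval held 0 in 29 of the 32 probe sets, lay within 0.5 of 0 in 28 and within 0.3 of 0 in 21. The farthest bound of an interval was 0.10 for the tightest probe set, 1 of *Klf9*, and 0.60 for the farthest, that of *Klf10*. Spread between mice set this width, and it was uneven across the family: of the 25 probe sets that were not dim, 8 were among the 10% with the largest spread within genotypes of all such probe sets. They belong to *Klf2*, *Klf4*, *Klf5*, *Klf6*, *Klf10* and *Klf12*, and none to *Klf7*, *Klf9*, *Klf13* or *Klf16*.

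**Figure D1:**
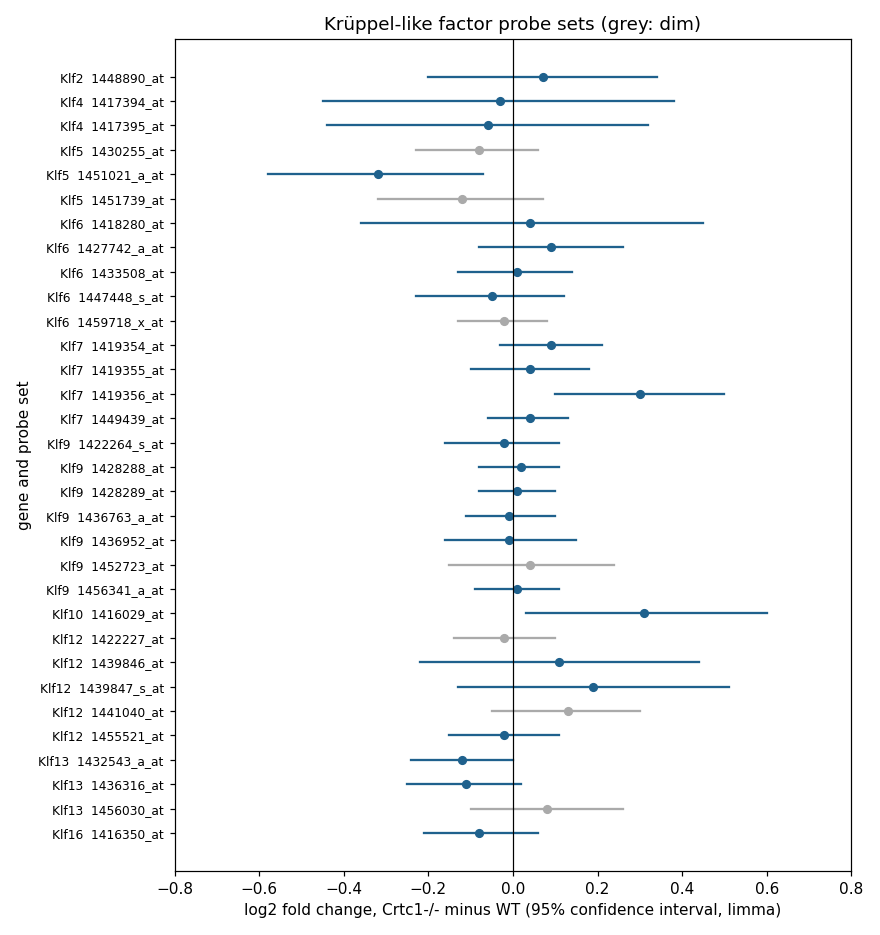
Log2 fold change, *Crtc1*-/- minus WT, of the 32 Krüppel-like factor probe sets (points) with 95% confidence intervals from limma (lines), n = 5 mice per genotype; grey marks dim probe sets. Only 1 probe set each of *Klf5*, *Klf7* and *Klf10* has an interval that leaves out 0, and all 32 points lie between −0.32 and 0.31.

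CREB, the partner of CRTC1, binds the cAMP response element TGACGTCA and, more weakly, its short form TGACG, which the full element contains, and the start regions of the members were searched for both on either strand. The RefSeq table for GRCm38.p6 held 7 of the 10 member promoters, each 250 bases before to 50 after the annotated start, those of *Klf2*, *Klf4*, *Klf6*, *Klf7*, *Klf9*, *Klf12* and *Klf13*. The full element was in 0 of the 7, against 1.79% of 32851 promoters. The short form was in 5 of the 7, *Klf2*, *Klf4*, *Klf9*, *Klf12* and *Klf13*, against 20.8% of all promoters, and the median GC content was 63.3% in the members' promoters against 52.7% in all. Of the other motifs searched on both strands, CACCC was in 5 of 7 (57.5% of all) and the GC box GGGCGG in 5 of 7 (35.7% of all), and these can share bases with each other. The glucocorticoid response element (AGAACA and TGTTCT with 3 bases between) was in 0 of 7 (0.00913% of all), and an exact form of the serum response motif (CC, ATATTA and GG in a row) in 0 of 7 (0.0639% of all). Only these exact letters were searched, so other forms of either motif could not be found. A match of letters is a description and no evidence of binding. The stretches around the short form are shown for the flow-responsive pair *Klf2* and *Klf4* and the hormone-responsive *Klf9* with its close relative *Klf13*, with the short form in capitals, in the direction of transcription; in *Klf4* the capitals CGTCA are the short form on the opposite strand.
*Klf2*, chr8:72318812-72318853, plus strand: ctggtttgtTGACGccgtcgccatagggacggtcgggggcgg
*Klf4*, chr4:55532675-55532725, minus strand: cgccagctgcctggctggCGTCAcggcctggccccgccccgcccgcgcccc
*Klf9*, chr19:23141152-23141212, plus strand: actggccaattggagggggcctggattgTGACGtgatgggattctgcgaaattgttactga
*Klf13*, chr7:63938939-63938999, minus strand: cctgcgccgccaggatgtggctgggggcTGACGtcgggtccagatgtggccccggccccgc
The capitals begin at −241 in *Klf2*, −232 in *Klf4*, −46 in *Klf9* and −56 in *Klf13*, counted from the start of transcription.

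*Klf2* and *Klf4*, the flow-induced factors that keep endothelium quiescent, did not pass the test between genotypes and varied widely between mice. *Klf2* measured 7.67, 7.85, 7.13, 7.80 and 7.45 in *Crtc1*-/- replicates 1 to 5, and 7.53, 7.61, 7.63, 7.44 and 7.35 in WT replicates 1 to 5. Both the highest and the lowest mouse were *Crtc1*-/-, and the WT values lay between them. The difference was 0.07 (SE 0.12, 95% interval −0.20 to 0.34, limma adjusted p = 0.958). *Klf4*, also one of the factors that reprogram cells to pluripotency, measured 6.92, 7.36, 6.42, 7.65 and 7.09 in *Crtc1*-/- and 7.12, 7.20, 7.36, 7.05 and 6.88 in WT cortices. Its *Crtc1*-/- values again reached beyond the WT values at both ends, with an SD of 0.47 in *Crtc1*-/- and 0.18 in WT cortices. The difference was −0.03 (SE 0.19, 95% interval −0.45 to 0.38, limma adjusted p = 0.988), which as a fold lies between 0.734 and 1.30. Its other probe set, at 6.56, 7.05, 6.18, 7.31 and 6.65 in *Crtc1*-/- and 6.76, 6.91, 6.98, 6.67 and 6.75 in WT cortices, differed by −0.06 (adjusted p = 0.975). *Crtc1*-/- replicate 3 was lowest and replicates 2 and 4 were highest in both probe sets.

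The same mice were high or low in both genes. With genotype means removed, *Klf2* and *Klf4* correlated at r = 0.89 over the 10 mice (exact permutation p = 0.0059 within genotypes), at 0.88 within *Crtc1*-/- and 0.96 within WT. With mice ranked separately inside each genotype, the ranks of the 10 mice correlated at 0.90 (exact permutation p = 0.00431 within genotypes). This rank correlation is written rho from here on. Without the 2 mice farthest from the median of *Klf2*, r was 0.76. This was 1 of 45 pairs among the 10 genes, and its p adjusted over the pairs was 0.266. In all 3 pairs had an exact p under 0.05 and 0 after adjustment. The other pairs under 0.05 were *Klf7* with *Klf12* (r = 0.68, exact p = 0.0153, rho 0.45, rho p = 0.246, adjusted p = 0.344, 0.83 without the 2 farthest) and *Klf12* with *Klf16* (r = −0.39, exact p = 0.0231, rho −0.80, rho p = 0.0192, adjusted p = 0.346, −0.62 without the 2 farthest). *Crtc1*-/- replicate 3, the lowest in *Klf2* and *Klf4*, was also lowest in the mean of 9 meningeal markers (6.92, the other *Crtc1*-/- mice 7.11 to 7.37) and highest in that of the oligodendrocyte markers (10.55, the others 10.23 to 10.40). Among *Crtc1*-/- mice it was also lowest in the astrocyte mean (10.22) and highest in the blood mean (4.31). With genotype means removed, the meningeal mean gave r = 0.81 with *Klf4* (exact permutation p = 0.0322, rho 0.60, rho p = 0.109) and 0.70 with *Klf2* (exact p = 0.0905, rho 0.40, rho p = 0.311). Without the 2 mice farthest from its median r was 0.20 and 0.11. Adjusted over 150 relations p was 0.322 and 0.551. Without *Crtc1*-/- replicate 3 the difference was 0.18 in *Klf2* and 0.13 in *Klf4*. Without *Crtc1*-/- replicate 2 it was 0.00 and −0.10, and without replicate 4 it was 0.01 and −0.18. With the oligodendrocyte markers as a covariate it was 0.20 and 0.14. The part of tissue composition in these values was not tested.

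**Figure D2:**
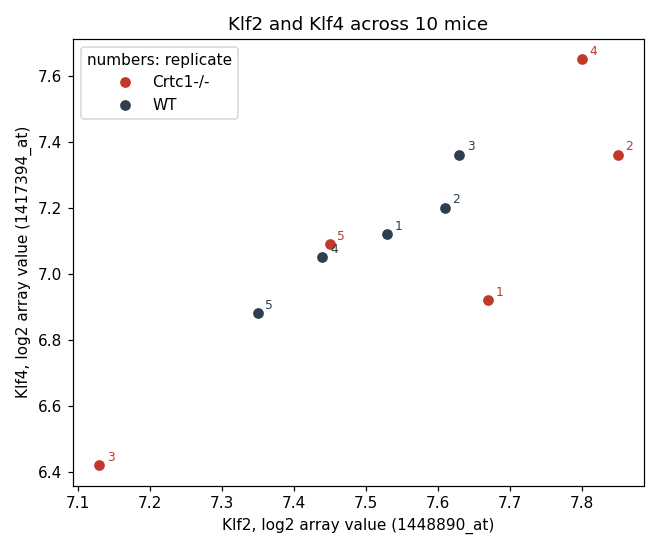
*Klf4* against *Klf2*, both as log2 array values, 1 point per mouse, red for *Crtc1*-/- and dark blue for WT, with the replicate number beside each point. Mice high in one gene are high in the other in both genotypes, and *Crtc1*-/- replicate 3 is lowest in both (7.13 for *Klf2*, 6.42 for *Klf4*).

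The endothelial markers averaged 8.64 ± 0.06 in *Crtc1*-/- and 8.61 ± 0.11 in WT (SD, n = 5 each, 9 of 10 measured, exact permutation p = 0.659). Of 25 genes of the pathway upstream and downstream of *Klf2* and *Klf4* (the KRIT1 complex, MEKK3, MEK5 and ERK5, the MEF2 factors and flow targets such as *Nos3* and *Thbd*), 0 were called in either direction by limma over 18193 genes, against 0.308% of all genes called higher and 0.456% called lower. At an unadjusted p under 0.05 there were 2 of the 25, against 9.86% of all genes. Their median fold change was 0.04 on the log2 scale against 0.00 over all genes, with 19 above and 6 below 0. The smallest p values belonged to *Adamts4*, a matrix protease (0.50, adjusted p = 0.158), to *Mef2d* (−0.14, adjusted p = 0.206) and *Mef2a* (0.13, adjusted p = 0.523), which are activity- and flow-dependent transcription factors, and to *Cav1*, a coat protein of caveolae (0.15, adjusted p = 0.564). *Mef2d* did not overlap, at 10.10 to 10.20 in *Crtc1*-/- and 10.24 to 10.35 in WT cortices, without passing the test. *Klf2* is the only member on chromosome 8, where *Crtc1* lies. In the gene order of GRCm38.p6, 116 genes lie between them, and of the 58 measured 5 were called higher and 6 lower in *Crtc1*-/- cortex, against 0.308% and 0.456% of all genes. The part of this neighbourhood in the *Klf2* values was not tested.

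**Figure D3:**
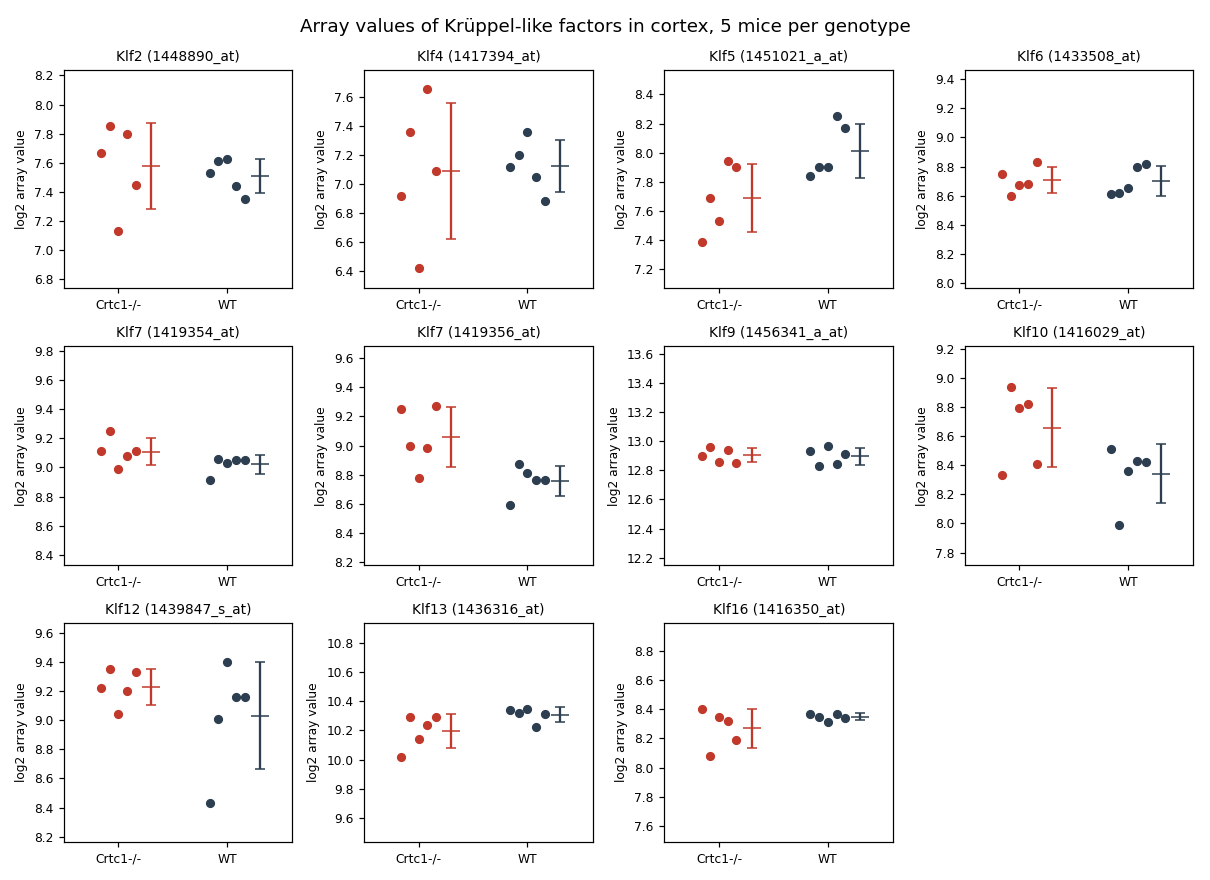
Log2 array values of the brightest probe set of each of the 10 Krüppel-like factors and of a second *Klf7* probe set, 1 point per mouse, *Crtc1*-/- (red) left of WT (dark blue), with mean and SD beside the points (n = 5 each) and the same axis span in every panel. The points of both genotypes overlap in every panel, and by the SD within genotypes *Klf2*, *Klf4*, *Klf10* and *Klf12* spread the most.

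*Klf9*, a hormone-responsive repressor that limits neurite growth and takes part in the maturation of neurons, held the probe sets with the smallest spread between mice. Its brightest probe set read 12.90, 12.96, 12.86, 12.94 and 12.85 in *Crtc1*-/- and 12.93, 12.83, 12.97, 12.84 and 12.91 in WT cortices. The genotypes covered almost the same span, with a difference of 0.01 (95% interval −0.09 to 0.11, limma adjusted p = 0.991). All 7 *Klf9* probe sets lay between −0.02 and 0.04 with adjusted p between 0.967 and 0.994, 1 of them dim.

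*Klf13*, which is close to *Klf9* in sequence and acts through the Sin3 corepressor, was the only member with 2 probe sets in which most WT mice stood above all *Crtc1*-/- mice. The brightest measured 10.02, 10.29, 10.14, 10.24 and 10.29 in *Crtc1*-/- and 10.34, 10.32, 10.35, 10.22 and 10.31 in WT cortices. The next measured 9.83, 9.81, 9.97 and 9.96 in *Crtc1*-/- replicates 1, 3, 4 and 5, with replicate 2 between 9.97 and 10.03, and 10.03, 10.05, 10.12, 9.91 and 10.07 in WT cortices. In each, 4 of 5 WT mice lay above the highest *Crtc1*-/- mouse, and WT replicate 4 did not. The differences were −0.11 (95% interval −0.25 to 0.02, limma adjusted p = 0.767, exact permutation p = 0.0714) and −0.12 (interval −0.24 to 0.00, adjusted p = 0.703, exact permutation p = 0.0556), where the smallest p that 5 against 5 allows is 0.00794. The third *Klf13* probe set was dim and gave 0.08 (adjusted p = 0.923), so the probe sets did not share a direction. *Klf16*, another member of this repressor group, measured 8.40, 8.08, 8.35, 8.32 and 8.19 in *Crtc1*-/- and 8.37, 8.35, 8.31, 8.37 and 8.34 in WT cortices. Its WT values were packed into a range of 0.07 and its *Crtc1*-/- values into 0.32, with a difference of −0.08 (95% interval −0.21 to 0.06, adjusted p = 0.879). Without *Crtc1*-/- replicate 2 it was −0.03, and without *Crtc1*-/- replicate 1 that of the brightest *Klf13* probe set was −0.07.

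Of 22 genes of glucocorticoid signalling, the 2 corticosteroid receptors and targets such as *Fkbp5*, *Sgk1* and *Tsc22d3*, 0 were called higher and 1 lower in *Crtc1*-/- cortex by limma, against 0.308% and 0.456% of all genes. At an unadjusted p under 0.05 there were 7 of the 22, against 9.86% of all genes. The median was −0.11 on the log2 scale against 0.00 over all genes, with 16 of 22 below 0. The gene that fell was *Arrdc2*, an arrestin-domain protein, at 5.28 to 5.6 in *Crtc1*-/- and 5.86 to 6.15 in WT cortices (log2 fold change −0.56, SE 0.07, limma adjusted p = 0.00375). Next by p stood *Cdkn1a*, a cell cycle inhibitor (0.37, adjusted p = 0.104), the clock gene *Per1* (−0.47, adjusted p = 0.199) and the mineralocorticoid receptor gene *Nr3c2* (−0.15, adjusted p = 0.328).

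*Klf10*, the transforming growth factor-beta inducible early gene, had the highest fold change of the family. It measured 8.33, 8.94, 8.79, 8.82 and 8.41 in *Crtc1*-/- and 8.51, 7.99, 8.36, 8.43 and 8.42 in WT cortices. In *Crtc1*-/- cortex 3 mice stood above the highest WT mouse, while the other 2 lay within the WT range. The difference was 0.31 (SE 0.13, 95% interval 0.03 to 0.60, a fold of 1.24, limma adjusted p = 0.64, exact permutation p = 0.111). As a covariate the oligodendrocyte markers gave 0.13, the hippocampal markers 0.31 and the endothelial markers 0.30. Of 19 measured genes of this growth factor's pathway 0 were called higher and 1 lower in *Crtc1*-/- cortex by limma, against 0.308% and 0.456% of all genes, and 2 had an unadjusted p under 0.05, against 9.86%. The median was 0.00 on the log2 scale, as over all genes. That gene was *Smad3*, which carries the signal of the receptors to the nucleus, at 8.81 to 9.03 in *Crtc1*-/- and 9.21 to 9.53 in WT cortices (−0.42, SE 0.07, adjusted p = 0.0118). *Id3*, a target of the related BMP signals (0.18, adjusted p = 0.349), *Smad2* (−0.11, adjusted p = 0.543) and the decoy receptor gene *Bambi* (−0.18, adjusted p = 0.582) did not pass.

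*Klf7*, a promoter of axon growth needed for sensory neuron development in mice, held the smallest p of the family, in 1 of its 4 probe sets. That probe set measured 9.25, 9.0, 8.78, 8.98 and 9.27 in *Crtc1*-/- and 8.59, 8.87, 8.81, 8.76 and 8.76 in WT cortices. In *Crtc1*-/- cortex 4 of 5 mice stood above the highest WT mouse, and replicate 3 lay inside the WT range. The difference was 0.30 (SE 0.09, 95% interval 0.10 to 0.50, a fold of 1.23 between 1.07 and 1.42, unadjusted limma p = 0.00779, adjusted p = 0.405, exact permutation p = 0.0238). The other 3 probe sets, all of them not dim, gave 0.09, 0.04 and 0.04. The brightest of these measured 9.11, 9.25, 8.99, 9.08 and 9.11 in *Crtc1*-/- and 8.91, 9.06, 9.03, 9.05 and 9.05 in WT cortices, with 4 of 5 *Crtc1*-/- mice above the highest WT mouse and an interval of −0.03 to 0.21 (adjusted p = 0.819). All 4 probe sets were above 0. Whether they differ from each other in response was not tested.

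*Klf6*, which like *Klf7* supports axon growth in zebrafish retina and is induced by injury, differed by 0.01 on its brightest probe set (95% interval −0.13 to 0.14, limma adjusted p = 0.994). The values there were 8.75, 8.60, 8.67, 8.68 and 8.83 in *Crtc1*-/- and 8.61, 8.62, 8.65, 8.80 and 8.82 in WT cortices. The genotypes spanned nearly the same range. A second *Klf6* probe set measured 7.46, 7.61, 6.69, 7.24 and 7.44 in *Crtc1*-/- and 6.67, 7.26, 7.43, 7.42 and 7.45 in WT cortices (0.04, adjusted p = 0.984). Here 1 mouse of each genotype, *Crtc1*-/- replicate 3 and WT replicate 1, stood well below the other 8. The remaining 3 *Klf6* probe sets gave 0.09, −0.05 and −0.02, the last of them dim.

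*Klf12*, a repressor that recruits CtBP, had its widest spread in WT cortex. Its brightest probe set measured 9.22, 9.35, 9.04, 9.20 and 9.33 in *Crtc1*-/- and 8.43, 9.01, 9.40, 9.16 and 9.16 in WT cortices. WT replicate 1 stood lowest and WT replicate 3 highest of all 10 mice. The difference was 0.19 (SE 0.15, 95% interval −0.13 to 0.51, limma adjusted p = 0.873), and as a covariate the oligodendrocyte markers gave 0.06, the hippocampal markers 0.28 and the endothelial markers 0.24. Without WT replicate 1 it was 0.04. The other probe sets that were not dim gave 0.11 and −0.02, and the 2 dim ones −0.02 and 0.13. WT replicate 1 was thus lowest of all 10 mice in *Klf12*, in the second *Klf6* probe set and in the *Klf7* probe set with the smallest p.

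*Klf5*, known for the proliferation of gut epithelium and vascular smooth muscle, had the lowest fold change of the family. It measured 7.39, 7.69, 7.53, 7.94 and 7.90 in *Crtc1*-/- and 7.84, 7.90, 7.90, 8.25 and 8.17 in WT cortices. In *Crtc1*-/- cortex 3 of 5 mice lay below the lowest WT mouse, and in WT cortex 2 of 5 above the highest *Crtc1*-/- mouse. The difference was −0.32 (SE 0.12, 95% interval −0.58 to −0.07, a fold of 0.799, unadjusted limma p = 0.0169, adjusted p = 0.532, exact permutation p = 0.0714). As a covariate the hippocampal markers gave −0.13, the oligodendrocyte markers −0.37 and the endothelial markers −0.29. The other 2 *Klf5* probe sets were dim and gave −0.08 and −0.12.

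Of 13 measured axon growth genes 0 were called by limma, against 0.308% of all genes called higher and 0.456% called lower, and 2 had an unadjusted p under 0.05, against 9.86%. The median was −0.04 on the log2 scale against 0.00 over all genes, with 10 of the 13 below 0. *Gap43*, a growth cone protein, lay at 10.63 to 10.90 in *Crtc1*-/- and 10.84 to 11.03 in WT cortices (−0.23, limma adjusted p = 0.136). *Sox11*, a transcription factor of young neurons, gave −0.33 (adjusted p = 0.256), the adhesion molecule gene *L1cam* −0.09 (adjusted p = 0.651), and *Sprr1a*, which is induced in injured neurons, was dim at 0.09 (adjusted p = 0.814).

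The genes whose deviations from genotype means were most like those of the 3 members with the smallest p were taken over the 10 arrays, as a description. They were *Mkx*, *Runx1t1* and *Prr36* for *Klf7* (r = 0.93, 0.91 and 0.90), *Glra3*, *Gm16551* and *Cd302* for *Klf5* (r = 0.95, 0.95 and 0.94), and *Pde4b*, *Tmem184a* and *Spire2* for *Klf10* (r = 0.93, 0.93 and 0.92). None of these 9 was called between genotypes by limma. The closest to the threshold was *Glra3*, a glycine receptor subunit, at 0.64 (adjusted p = 0.0902). Each set of 3 genes is the top of a search over 18193 genes, so its r is high by selection and was not tested.

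Among the other Krüppel-like and SP factors, 13 of 16 listed were measured and 0 were called by limma, where 0.308% of all genes were called higher and 0.456% lower. At an unadjusted p under 0.05 there was 1 of the 13, against 9.86% of all genes, and the median was 0.00 on the log2 scale, as over all genes. *Klf15*, a glucocorticoid-induced regulator of metabolism, lay at 7.62 to 7.93 in *Crtc1*-/- and 7.91 to 8.05 in WT cortices (−0.14, limma adjusted p = 0.449). *Klf11*, the close relative of *Klf10*, gave 0.17 (adjusted p = 0.586), and the ubiquitous factor gene *Sp3* and the bone factor gene *Sp7* gave −0.06 (adjusted p = 0.707) and −0.07 (adjusted p = 0.831). Of 14 measured cofactors through which these proteins act 0 were called by limma (0.308% of all genes higher, 0.456% lower) and 0 had an unadjusted p under 0.05 (9.86% of all genes), with a median of −0.02 on the log2 scale. The smallest p values were those of *Hcfc1* (−0.07), *Wdr5* (−0.06), *Ep300* (−0.06) and *Wwp1* (−0.07), a host cell factor, a histone methylation scaffold, an acetyltransferase and a ubiquitin ligase, with adjusted p between 0.684 and 0.805.

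Several Krüppel-like factors are induced by neuronal activity, and the activity-induced list did hold called genes. It was chosen with earlier results of these data known, so its counts are a description. Of 37 listed and measured genes 1 was called higher and 6 lower in *Crtc1*-/- cortex over genes, against 0.308% and 0.456% of all genes, with a median of −0.04 on the log2 scale. Of the 37, 15 were above and 22 below 0, and 22 had an unadjusted p under 0.05, against 9.86% of all genes. The 4 with the smallest p were *Crem*, a cAMP-responsive factor gene (−0.74, limma adjusted p = 0.000666), the nuclear receptor genes *Nr4a3* (−0.94, adjusted p = 0.00485) and *Nr4a1* (−0.99, adjusted p = 0.00954), and the neurotrophin gene *Bdnf* (−0.72, adjusted p = 0.00636). The paper already reported all 4 as lower in *Crtc1*-/- cortex from these arrays. *Nr4a1* lay at 8.58 to 9.41 in *Crtc1*-/- and 9.62 to 10.14 in WT cortices. The gene called higher was *Nptx2*, a neuronal pentraxin gene (0.61, limma adjusted p = 0.0318). Adjusted over probe sets, as the members were, the 4 with the smallest p still passed (limma adjusted p 0.00184 to 0.0195). *Nptx2* (0.0606), *Dusp1* (0.0831) and *Plk2* (0.0889) did not, so no gene of the list was then called higher. *Egr2* (0.81, adjusted p = 0.351), *Npas4* (0.51, adjusted p = 0.345), *Arc* (0.45, adjusted p = 0.424) and *Egr1* (0.25, adjusted p = 0.387) were also above 0 but not called. The brightest probe sets of the 10 Krüppel-like factors had fold changes between −0.32 (*Klf5*) and 0.31 (*Klf10*) on the same arrays. Of these 6 were above and 4 below 0, and no test of the difference between genes was made.

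**Figure D4:**
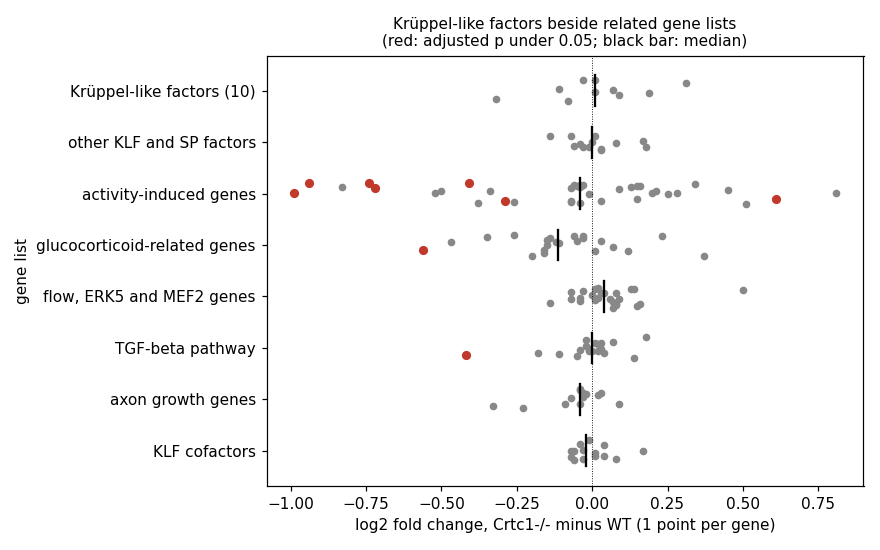
Log2 fold change, *Crtc1*-/- minus WT, of the 10 Krüppel-like factors and of 7 related gene lists, 1 point per gene (brightest probe set), scattered vertically within a list for visibility; black bars mark list medians and red points genes with adjusted p under 0.05. The limma p is adjusted over probe sets for the Krüppel-like factors and over genes for the lists. Adjusted over genes, the lowest of the 10 Krüppel-like factors was 0.341. The 10 Krüppel-like factors lie between −0.32 and 0.31 with none in red, and the 7 called activity-induced genes lie between −0.99 and 0.61.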

How the data were processed

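Total RNA of the cortex (300 ng per mouse) was labelled and hybridized to Affymetrix GeneChip Mouse Genome arrays. Array quality was checked by the authors in RACE, and what they deposited are log2 values, 1 for each probe set on each array. Background correction, normalization and summarization are not given in the sources used here. The values lay between 2.14 and 14.26, with array medians of 5.29 to 5.32 and sorted values that differed by at most 0.165 between arrays. Of 45101 probe sets 64 controls were left out. The platform annotation names 1 gene for 34945 of the others, several for 932 and none for 9160, and 34741 gene identifiers matched RefSeq. No probe set names a member beside another gene.

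Genotypes were compared with limma 3.58.1 (lmFit, then eBayes; R 4.3.3) without covariates, and p-values were adjusted by Benjamini-Hochberg over 45037 probe sets or, for lists, over 18193 genes represented by their brightest probe set. An adjusted p under 0.05 counted as called. The fit was tested on simulated data first. Single values were compared by two-sided exact permutation over 252 assignments, and pairs of genes by 14400 reorderings within genotypes (scipy 1.17.1). Dim means below the median of all probe set means. Precision is limited by having 5 arrays in each genotype. Nothing in the labels names array batches. The p-values between genotypes set a difference against the variation within genotypes. With 1 array per mouse, mouse and array handling cannot be told apart in that variation.

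The members and the lists were chosen with earlier results of these data known. The text names *Crtc1*, every member, up to 4 genes of smallest p per list, and for the 3 members of smallest p the 3 genes of highest correlation. *Nos3*, *Thbd*, *Fkbp5*, *Sgk1* and *Tsc22d3* are named as examples of their lists. Marker genes and *Nptx2*, *Plk2*, *Egr1*, *Egr2*, *Npas4*, *Arc* and *Dusp1* were named after their values were seen. The 7 related lists and 9 marker lists were described by counts and medians. Striatal (6.91 in *Crtc1*-/-, 6.87 in WT), microglial (8.46, 8.45), astrocyte (10.27, 10.19) and blood markers (4.16, 4.28) gave exact permutation p of 0.786, 0.889, 0.111 and 0.23, and meningeal markers (7.15, 7.13) 0.81. Alternatives were other normalizations, filters, variance priors, array weights, a replicate block, marker covariates, gene summaries and leaving out each array.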

Additional observations from a re-analysis of the deposited data

Results flagged for a closer look

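In 4 of 64 groups of 5 mice (32 probe sets in each genotype), the lowest or highest mouse stood far from the rest of its group, where chance gives about 1 in 20, or 3.2. All 4 were the lowest WT mouse of a probe set. WT replicate 1 read 6.67 in the second *Klf6* probe set, with the next WT mouse at 7.26, and 8.91 in the brightest *Klf7* probe set, with the next at 9.03. WT replicate 2 read 7.99 in *Klf10*, with the next at 8.36, and WT replicate 4 read 10.22 in the brightest *Klf13* probe set, with the next at 10.31. Neither *Crtc1*-/- replicate 3 in *Klf4* (6.42) nor WT replicate 1 in *Klf12* (8.43) met this criterion.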

How the results depend on the processing

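No member probe set was called under any of 13 alternatives or with any of the 10 arrays left out; the smallest adjusted p among member probe sets was between 0.16 and 0.716 across these settings. Over all probe sets, limma called 136, and 239 with a trended and robust prior, 75 without moderation, 40 with the replicate block, 30 with the oligodendrocyte and 22 with the hippocampal covariate, and 70 to 105 with an array left out. Of 11 fold changes followed in 248 comparisons, 229 kept their direction and 19 were reversed, all in *Klf4*, *Klf6* and *Klf9*, whose fold changes are near 0. *Klf4* (−0.03) was 0.03 with array weights, 0.14 with the oligodendrocyte and 0.04 with the hippocampal covariate, and −0.18 to 0.13 with an array left out. *Klf6* (0.01) was −0.03 with the oligodendrocyte covariate and −0.03 to 0.04 with an array left out. *Klf9* (0.01) was −0.01 with the oligodendrocyte, −0.04 with the hippocampal and 0.00 with the endothelial covariate, and −0.01 to 0.03 with an array left out. The cause was not tested. Leaving out an array gave 0.25 to 0.37 for the *Klf7* probe set of smallest p, −0.39 to −0.25 for *Klf5*, 0.23 to 0.40 for *Klf10*, 0.04 (without WT replicate 1) to 0.29 for *Klf12*, −0.14 to −0.07 (without *Crtc1*-/- replicate 1) for the brightest *Klf13* probe set, −0.11 to −0.03 (without *Crtc1*-/- replicate 2) for *Klf16*, and 0.00 to 0.18 for *Klf2*. Same-numbered mice did not deviate together (0 of 5 pairs correlated above 0.1, and 1 of 5 *Crtc1*-/- arrays correlated best with its own number), so the replicate block (*Klf5* −0.32, adjusted p = 0.16; *Klf7* 0.30, adjusted p = 0.676) pairs by number alone. The 5 arrays per genotype limit the precision, and each interval is given with its result.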

Other observations

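The members were also set against 15 other measures per array, among them marker means, *Fkbp5*, *Sgk1* and *Fos*, with genotype means removed. These relations were chosen after values had been seen. Of 150 relations 16 had an exact permutation p under 0.05 and 0 after adjustment (lowest adjusted p 0.254). *Klf2* varied with *Sgk1*, a kinase gene induced by corticosteroids (r = 0.86 over 10 mice, exact p = 0.00569, rho 0.80, rho p = 0.0192, adjusted p = 0.254), at 0.92 within *Crtc1*-/- and 0.68 within WT, and at 0.79 without the 2 farthest mice. *Klf4* varied with *Fkbp5*, a glucocorticoid-induced chaperone gene (r = 0.85, exact p = 0.0084, rho 0.75, rho p = 0.0336, adjusted p = 0.254), at 0.92 within *Crtc1*-/- and 0.63 within WT, and at 0.76 without the 2 farthest mice. The crossed pairs gave r = 0.83 for *Klf4* with *Sgk1* (exact p = 0.0128, adjusted p = 0.271) and 0.80 for *Klf2* with *Fkbp5* (exact p = 0.0217, adjusted p = 0.271). Without the 2 farthest mice these were 0.60 and 0.59. *Klf9* with *Sgk1* (r = 0.74, exact p = 0.0187, adjusted p = 0.271) and *Klf13* with *Fkbp5* (r = 0.77, exact p = 0.0299, adjusted p = 0.322) were also under 0.05 before adjustment. *Klf2* and *Klf4* also varied with the astrocyte marker mean, *Klf4* at r = 0.70 (exact p = 0.00326, rho 0.90, rho p = 0.00431, adjusted p = 0.254, 0.80 without the 2 farthest) and *Klf2* at 0.68 (exact p = 0.00743, rho 0.90, rho p = 0.00431, adjusted p = 0.254, 0.76 without the 2 farthest). *Klf2* and *Klf4* against the endothelial marker mean gave r = 0.44 (exact p = 0.105, rho 0.61, rho p = 0.0925) and 0.40 (exact p = 0.141, rho 0.58, rho p = 0.113).

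*Klf5* varied with *Fos* (r = 0.79, exact p = 0.0179, rho 0.85, rho p = 0.00931, adjusted p = 0.271, 0.72 without the 2 farthest mice). It also varied with *Egr1* (r = 0.76, exact p = 0.0207, rho 0.80, rho p = 0.0192, adjusted p = 0.271). With *Dusp1* r was 0.73 (exact p = 0.0372, adjusted p = 0.349), but by ranks it was weaker (rho 0.55, rho p = 0.145). Against the cortical neuron marker mean r was 0.75 (exact p = 0.0115, rho 0.63, rho p = 0.0831, adjusted p = 0.271). The microglial one gave −0.69 (exact p = 0.0308, rho −0.50, rho p = 0.192, adjusted p = 0.322), at −0.43 within *Crtc1*-/- and −0.98 within WT. Between genotypes *Egr1* was above 0 (0.25, limma adjusted p = 0.387) and *Dusp1* below (−0.41, limma adjusted p = 0.0401 over genes and 0.0831 over probe sets). *Fos* itself lay at 8.20 to 9.26 in *Crtc1*-/- and 9.07 to 9.81 in WT cortices and did not pass over genes (−0.83, limma adjusted p = 0.12). *Klf6* varied against the endothelial marker mean (r = −0.81, exact p = 0.00847, rho −0.76, rho p = 0.0258, adjusted p = 0.254, −0.82 without the 2 farthest mice). This was not particular to endothelium. The microglial marker mean also gave r = −0.81 (exact p = 0.0205, rho −0.45, rho p = 0.246, adjusted p = 0.271), and the astrocyte one −0.69 (exact p = 0.063, adjusted p = 0.518).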
